A study of Bos taurus with 7 samples.

Results

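The miRNAs described here are miR-106b, miR-93 and miR-25, which are cut from a single primary transcript, measured in the blood plasma of cows after insemination. They are the 3 of 744 bovine miRNAs on the array whose deposited name is bta-miR-106b, bta-miR-93 or bta-miR-25. The rule used names and no measured value, but earlier results of these data were known when it was set. The 3 miRNAs were read through 6 of 1617 probes and 60 of 14880 spots per array. Plasma was taken from Japanese-Black cattle (Bos taurus) on day 21, counted from artificial insemination as day 0. The 7 samples were treated as 7 animals. Pregnant cows 1, 2, 3 and 4 and non-pregnant cows 1, 3 and 4 each had a separate 1-colour array, hybridised with Cy3-labelled RNA prepared from 50 ng. All 7 animals had been inseminated after controlled estrus, so the groups differ in the labelled pregnancy status, and the cows' ages are not given in the sources used here. The question was whether circulating miRNA levels differ between early pregnancy and its absence.

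In vertebrates these miRNAs lie in an intron of MCM7, which encodes a subunit of the DNA helicase that opens replication origins, and they are processed from its transcript. miR-106b and miR-93 carry the same seed as miR-17 and miR-20a and are known to repress the cell cycle inhibitor p21. miR-25 carries the seed of miR-92a and is known to repress the pro-apoptotic protein BIM. The better known miR-17 cluster, which promotes growth, is its paralogue, and both are active in dividing and blood-forming cells. In the bovine RefSeq annotation (ARS-UCD2.0), all 3 miRNA genes lie within the MCM7 gene.

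The probes are shown because each member was read by a pair of probes that differ by a single base, and most of the signal came from the longer one. Each is printed 5′ to 3′, and the capital marks the base that the longer probe has and the shorter one lacks.
miR-106b longer probe: atctgcactgtcagcaC
miR-106b shorter probe: atctgcactgtcagca
miR-93 longer probe: tacctgcacgaacagC
miR-93 shorter probe: tacctgcacgaacag
miR-25 longer probe: tcagaccgagacaagtgC
miR-25 shorter probe: tcagaccgagacaagtg
The files place the longer probes on UMD 3.1 at chr25:36892062-36892077 for miR-106b, chr25:36892266-36892280 for miR-93 and chr25:36892505-36892521 for miR-25, intervals that hold 1 base fewer than each probe has letters. From the first to the last of these positions the cluster spans 460 bp of chromosome 25. G and C make up 52.9% of the longer miR-106b probe, 56.3% of that of miR-93 and 55.6% of that of miR-25. The longer probe gave the higher signal on 7 of 7 arrays for each of the 3 miRNAs, which reflects the brightness of a probe and not an amount of miRNA.

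The probes of close relatives are shown because relatives with like sequence could share signal. In each pair below, capitals mark bases that differ or that lie outside the aligned stretch.
miR-106b: aTctgcactgtCagcaC
miR-106a: TaCctgcactgtAagca
miR-93: tacctgcacGaACagc
miR-20a: CtacctgcacTaTAagcAC
miR-25: TcagAccgAgacaagtGC
miR-92a: AcagGccgGgacaagt
miR-106b and miR-106a, a miRNA of the X-linked copy of the miR-17 cluster, had the same base at 14 of 16 aligned positions. miR-93 and miR-20a had the same base at 13 of 16, and miR-25 and miR-92a at 13 of 16. The longest run that the miR-106b and miR-93 probes shared with a probe of any other miRNA on the array was 9 bases, and for miR-25 it was 8 bases. How much signal relatives share was not measured, so miR-106b and miR-93 are uncertain as measurements separate from miR-106a, miR-17-5p, miR-20a and miR-20b.

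miR-25 was detected in the plasma of all 7 cows, miR-106b in 4 of 4 cows with pregnancy and 1 of 3 without, and miR-93 in 2 of 4 with and 0 of 3 without. Detected here is the call of the scanner software, and every miRNA called detected had a signal over 3 times its error. These counts were not tested. Over the array, 35 of 744 miRNAs (4.7%) were called detected in every pregnant cow and in fewer than 3 non-pregnant cows, a pattern shown by miR-106b but not by miR-25 or miR-93. Of the 744, 620 were detected on no array and could not show it. All 35 were among the 88 miRNAs detected on at least 3 arrays, so the pattern was common among detected miRNAs. More miRNAs in all were detected per pregnant array (90 to 101) than per non-pregnant array (45 to 84).

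miR-25 was the brightest member. Its signal per miRNA, the sum over its probes in arbitrary units before any scaling between arrays, was 23.4, 42.2, 42.9 and 36.8 in pregnant cows 1, 2, 3 and 4 and 8.65, 23.5 and 14.4 in non-pregnant cows 1, 3 and 4. The groups met at the edge: pregnant cow 1 and non-pregnant cow 3 had nearly the same signal, and the other pregnant cows were above all non-pregnant cows. The error that the software attached to each of these signals ran from 1.50 to 4.01. miR-25 made up between 0.0247% and 0.156% of the summed signal of detected miRNAs. Its longer probe was well above background in every spot used on all 7 arrays, whereas its shorter probe was so in most spots only in pregnant cows 2 and 3.

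The longer miR-25 probe had a mean background-subtracted signal of 44.4 ± 11.5 (SD, n = 4) with pregnancy against 20.9 ± 7.51 (SD, n = 3) without (two-sided exact permutation p = 0.0857). With 35 ways to split the arrays, the smallest p that this test can give is 0.0286. The shorter probe averaged 10.3 ± 3.43 (SD, n = 4) and 4.06 ± 2.97 (SD, n = 3) in the same order (exact permutation p = 0.114). The probes disagreed about pregnant cow 4, which was high by the longer probe (48.6) and the lowest pregnant cow by the shorter one (6.89).

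miR-106b was dim and rested on its longer probe. Its signal per miRNA was 4.11, 16.4, 7.87 and 18.3 in pregnant cows 1, 2, 3 and 4 and 5.18 in non-pregnant cow 3, while the software set non-pregnant cows 1 and 4 to 0.1 as not detected. Pregnant cows 2 and 4 stood highest, and pregnant cow 1 was below non-pregnant cow 3. The highest 2 arrays were those of pregnant cows 2 and 4 for 18 of 88 miRNAs (20.5%) detected on at least 3 arrays. The longer probe was well above background in over 50% of spots in pregnant cows 2, 3 and 4 and in non-pregnant cow 3, with 6 of 10 spots in the latter. The shorter probe did not reach that share in any cow.

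Taken without a detection call or a floor, the longer miR-106b probe read 6.19, 16.5, 11.9 and 19.2 in pregnant cows 1, 2, 3 and 4 and 1.96, 7.80 and 5.29 in non-pregnant cows 1, 3 and 4. The mean was 13.5 ± 5.72 (SD, n = 4) against 5.02 ± 2.93 (SD, n = 3), and the groups overlapped through pregnant cow 1 (exact permutation p = 0.0857).

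miR-93 was near the limit of detection. It was called detected in pregnant cows 2 and 4, with signals of 4.04 and 4.48 that were 3.28 and 3.02 times their error, and 0 of its spots were well above background on any array. No fold is therefore given for miR-93, and it did not enter the test across miRNAs, which needed detection on at least 3 arrays.

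The longer miR-93 probe read 2.58, 6.08, 3.24 and 6.75 in pregnant cows 1, 2, 3 and 4 and -0.764, 2.10 and 0.115 in non-pregnant cows 1, 3 and 4. Every pregnant cow was above every non-pregnant cow, with means of 4.66 ± 2.06 (SD, n = 4) and 0.485 ± 1.47 (SD, n = 3) (exact permutation p = 0.0571, a test chosen after the values were seen). Such a separation was found for the longest probe of 42 of 744 miRNAs (5.65%) and of 14 of the 88 miRNAs tested below (15.9%), and for 1 of these 3 members. With each array's median over never-detected miRNAs subtracted, the miR-93 groups were again apart (lowest 3.26 against highest 2.61), as for 26 of 744 miRNAs (3.49%). After division by the scaling value of each array they overlapped (exact permutation p = 0.143), while 16 of 744 (2.15%) were apart on that scale. The shorter miR-93 probe was at or below 0 on all 7 arrays, from -3.71 to -0.101.

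**Figure D1:**
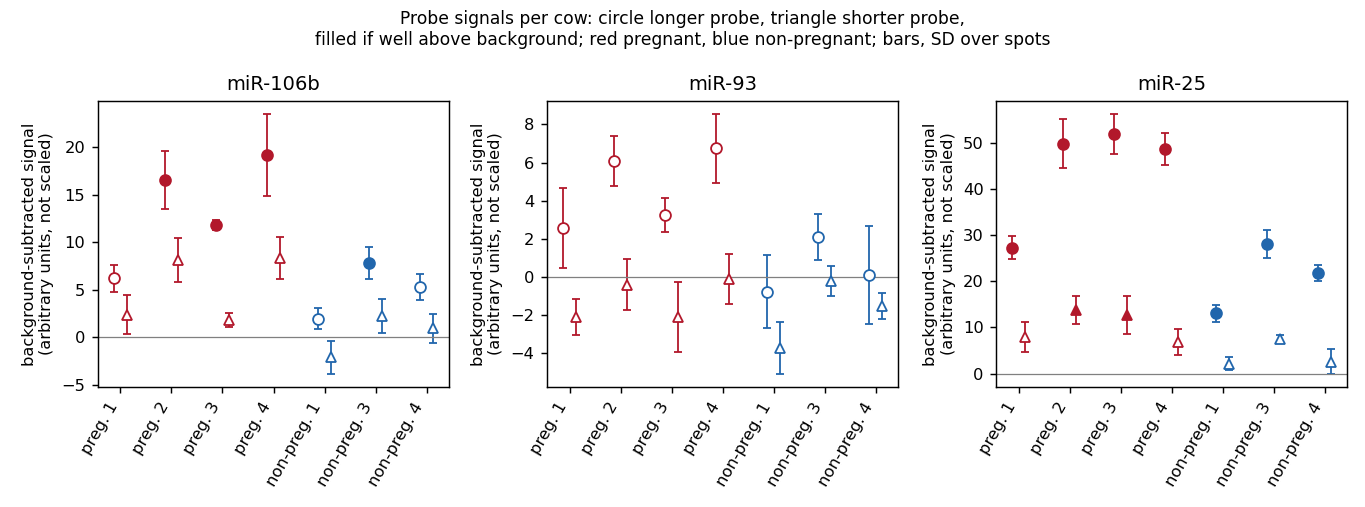
Mean background-subtracted signal of each probe per cow (arbitrary units, not scaled between arrays), with bars for the SD over spots, circles for longer and triangles for shorter probes, red for pregnant and blue for non-pregnant cows, and filled symbols where over 50% of spots were well above background. miR-25 is filled in all 7 cows by its longer probe, miR-106b in 4 cows, and miR-93 in none.

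Array brightness differed between cows. The median signal over the 1360 probes of the 620 miRNAs detected on no array ran from -2.39 in non-pregnant cow 1 to -0.165 in pregnant cow 4. The 75th percentile of probes detected on all arrays, by which signals were divided to put arrays on a common scale, ran from 172 in non-pregnant cow 1 to 1645 in pregnant cow 3. All arrays came from 1 slide, the pregnant group on row 1 of it and the other group on row 2, and slide row cannot be told apart from pregnancy.

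Across the 7 cows, the members' signals rose and fell together before scaling. Each relation below is over the longer probes, was chosen after the values were seen, and belongs to a family of 9 (3 pairs on 3 scales) over which p-values were adjusted. miR-106b and miR-93 gave Pearson r = 0.971 (exact permutation p = 0.000397, adjusted p = 0.00268) and Spearman rho = 0.964 (exact permutation p = 0.00278, adjusted p = 0.0125), and r = 0.882 without pregnant cows 2 and 4, the farthest from the median. miR-25 and miR-106b gave r = 0.914 (exact permutation p = 0.00595, adjusted p = 0.0116) and rho = 0.857 (exact permutation p = 0.0238, adjusted p = 0.0429), and r = 0.986 without pregnant cows 2 and 3. miR-25 and miR-93 gave r = 0.882 (exact permutation p = 0.00774, adjusted p = 0.0116) and rho = 0.821 (exact permutation p = 0.0341, adjusted p = 0.0512), and r = 0.987 without pregnant cows 2 and 3. These 2 cows were the farthest from the median of miR-25. Pregnant cow 4, the highest cow for miR-106b and miR-93, therefore stayed in both miR-25 pairs. Its miR-25 signal was 48.6, and the next highest left in was 28.0, in non-pregnant cow 3. The values of 0.986 and 0.987 therefore do not show that the relations of miR-25 hold without the highest cows.

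The ranking of cows showed the same closeness. Both miR-106b and miR-93 had pregnant cow 4 highest, then pregnant cows 2 and 3, and non-pregnant cow 1 lowest, with only pregnant cow 1 and non-pregnant cow 3 exchanged between them. miR-25 had pregnant cow 3 highest. Within a group there were 4 or 3 cows, too few to give a correlation free of the group difference.

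Some miRNAs of other transcripts correlated as closely. The median r of the longer miR-25 probe with the longest probes of 86 other tested miRNAs was 0.443, and 9 of them had a higher r with miR-25 than miR-106b did and 14 a higher r than miR-93 did. For miR-106b the median was 0.212, and 5 of 86 had a higher r than miR-93. After subtracting each array's median over never-detected miRNAs, the pairs gave r = 0.961 for miR-106b and miR-93 (exact permutation p = 0.00179, adjusted p = 0.00536), 0.912 for miR-25 and miR-106b (exact permutation p = 0.00774, adjusted p = 0.0116) and 0.878 for miR-25 and miR-93 (exact permutation p = 0.0137, adjusted p = 0.0176). The rho values in that order were 0.929, 0.857 and 0.786, with adjusted exact permutation p = 0.0202, 0.0429 and 0.0617.

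Scaling changed the picture for miR-93. Divided by the array's scaling value, miR-25 and miR-106b still gave r = 0.935 (exact permutation p = 0.000595, adjusted p = 0.00268), rho = 0.964 (exact permutation p = 0.00278, adjusted p = 0.0125) and r = 0.925 without pregnant cows 2 and 4. miR-106b and miR-93 gave r = 0.913 (exact permutation p = 0.0232, adjusted p = 0.0261) and miR-25 and miR-93 r = 0.738 (exact permutation p = 0.0571, adjusted p = 0.0571). By rank neither passed: rho was 0.643 for miR-106b and miR-93 (exact permutation p = 0.139, adjusted p = 0.156) and 0.607 for miR-25 and miR-93 (exact permutation p = 0.167, adjusted p = 0.167). Of 86 other tested miRNAs, 11 had a higher r with miR-25 than miR-106b did on this scale and 27 a higher r than miR-93 did, and 14 had a higher r with miR-106b than miR-93 did. Without pregnant cows 2 and 4, r turned to -0.38 for miR-106b and miR-93 and to -0.69 for miR-25 and miR-93, so on this scale both relations of miR-93 rest on those cows.

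**Figure D2:**
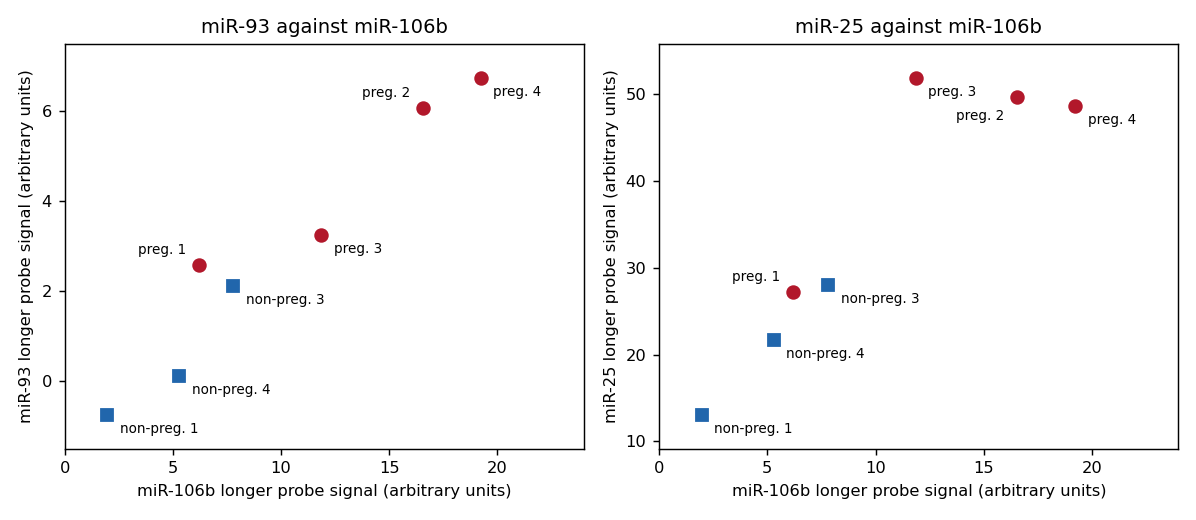
Longer-probe signals of miR-93 (left) and miR-25 (right) against miR-106b, before scaling, in arbitrary units, 1 point per cow, with red circles for pregnant and blue squares for non-pregnant cows. Pregnant cows 2, 3 and 4 lie at the upper right and non-pregnant cow 1 at the lower left in both panels, while pregnant cow 1 lies beside non-pregnant cow 3.

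On the scaled log2 level, used for the test across miRNAs, neither tested member was called different between pregnant and non-pregnant cows. The scaled level of miR-25 was -5.36, -4.08, -5.67 and -4.50 in pregnant cows 1, 2, 3 and 4 and -5.03, -5.80 and -5.80 in non-pregnant cows 1, 3 and 4. Pregnant cow 3, which had the highest signal before scaling, became the lowest pregnant cow, and non-pregnant cow 1, which had the lowest signal, became the highest non-pregnant cow. The mean was -4.90 ± 0.74 (SD, n = 4) against -5.54 ± 0.44 (SD, n = 3). The difference of 0.64 (1.56-fold) had a standard error of 0.44 and a 95% interval from -0.43 to 1.71 (limma, adjusted p = 0.743). limma with Benjamini-Hochberg adjustment called 0 of 88 tested miRNAs (0%), and 1 of 88 (1.14%) had an unadjusted p under 0.05, which was neither member.

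The scaled level of miR-106b was -5.25 in pregnant cow 2 and -5.03 in pregnant cow 4, and in the other 5 cows it lay at the floor of -6.36, the lowest value the scale allows. The mean was -5.75 ± 0.71 (SD, n = 4) in pregnant cows, and the difference was 0.61 with a standard error of 0.38 and a 95% interval from -0.31 to 1.53 (limma, adjusted p = 0.743). With all 3 non-pregnant cows at the floor this difference could not be negative, and its size depends on the floor: it was 0.19 with the floor doubled and 1.02 with the floor halved. No fold is given for it, since 1 of 3 non-pregnant cows measured miR-106b well above background. With the software's signal per miRNA in place of the probe mean, the difference of miR-106b was 1.67 (95% interval from 0.14 to 3.20, limma, adjusted p = 0.427).

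Both differences lay above the median of all 88 tested miRNAs, which was 0.18, with 62 of 88 (70.5%) higher in pregnancy. That split was 76 of 88 without scaling, 39 of 88 with quantile scaling and 8 of 88 with normexp background correction. With normexp the median was -0.19, and the differences of miR-25 and miR-106b turned to -0.052 and -0.15, still 0.13 and 0.037 above it. Relative to the median of the tested miRNAs, miR-25 was positive in 20 of 20 settings and miR-106b in 19 of 19. The settings reuse the same arrays, so these counts are not separate evidence. Without scaling, miR-25 differed by 0.71 with a standard error of 0.24 (limma, adjusted p = 0.336), and it was among the 10 of 88 miRNAs (11.4%) with an unadjusted p under 0.05 on that scale.

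Within an array, scaling cancels when members are set against each other, but only where both lie above the floor. The log2 difference of miR-25 and miR-106b on one array was 1.00 ± 0.31 (SD, n = 4) with pregnancy against 0.61 ± 0.28 (SD, n = 3) without. The change between groups was 0.39 and did not pass the test (exact permutation p = 0.229, adjusted p = 0.343 over the 3 pairs compared). Here 3 of 3 cows without pregnancy and 1 of 4 with it had miR-106b at the floor, and the size of that change depends on the floor. In those cows the difference was the unscaled level of miR-25 less a constant, so array brightness did not cancel. The change between groups was -0.083 with the software's signal. These values do not show that miR-25 and miR-106b moved unequally, nor that they moved alike.

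Relatives with the same seed but another transcript gave values of both kinds. miR-92a, the miR-17 cluster member with the seed of miR-25, had signals per miRNA of 72.7, 54.6, 99.3 and 48.1 in pregnant cows 1, 2, 3 and 4 and 28.6, 61.2 and 36.2 in non-pregnant cows 1, 3 and 4. Before scaling, pregnant cows 2 and 4 were thus the lowest pregnant cows for miR-92a, whereas for miR-106b they were the highest. On the scaled log2 level miR-92a was -3.69, -3.68, -4.69 and -3.77 in pregnant cows 1, 2, 3 and 4. Pregnant cow 2 was then the highest of them and pregnant cow 3 the lowest, so that contrast does not hold after scaling. The within-array difference of miR-25 and miR-92a was -0.98 ± 0.58 (SD, n = 4) with pregnancy against -0.98 ± 0.34 (SD, n = 3) without (exact permutation p = 0.971, adjusted p = 0.971, a pair chosen after the values were seen). G and C made up 62.5% of the longest miR-92a probe, more than in the longer probes of the members.

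miR-20a, the miR-17 cluster member with the seed of miR-106b and miR-93, had signals of 14.2, 37.1, 23.6 and 41.0 in the pregnant cows and 4.27, 13.9 and 13.1 in the non-pregnant cows, in the same order of cows. Before scaling, every pregnant cow was above every non-pregnant cow for miR-20a, by a narrow margin in pregnant cow 1 (14.2 against 13.9). How many of all miRNAs were so separated on this measure was not counted. On the scaled log2 level the groups overlapped, with -6.27 in pregnant cow 3 and -5.37 in non-pregnant cow 1. The within-array difference of miR-106b and miR-20a was -0.88 ± 0.43 (SD, n = 4) with pregnancy against -0.18 ± 0.15 (SD, n = 3) without (exact permutation p = 0.0571, adjusted p = 0.171, also chosen after the values were seen). The floor held miR-106b in 3 of 3 cows without pregnancy, so this difference has no settled size and array brightness did not cancel in those cows.

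Of the 6 miRNAs with the seed of miR-106b and miR-93, 5 were detected somewhere and 3 tested. None of the 3 was called, against 0% of all tested miRNAs, and all 3 had a higher mean in pregnant cows: miR-106b, miR-20a (log2 difference 1.00) and miR-17-5p (0.36). Their median difference was 0.61, against 0.18 for all 88, of which 62 (70.5%) had a higher mean in pregnant cows. However, miR-17-5p and miR-106b sat at the floor in each of the 3 cows without pregnancy. miR-106a was detected in pregnant cows 2 and 4 only, the cows in which miR-93 was detected, with signals of 6.10 and 7.14. miR-20b was not detected on any array.

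Of the 6 miRNAs with the seed of miR-25, only miR-25 and miR-92a were detected and tested, and miR-92b, miR-32, miR-363 and miR-367 were not detected on any array. The difference of miR-92a was 0.41 with a standard error of 0.52 (limma, adjusted p = 0.814). Of the 11 miRNAs of the miR-17 cluster and its X-linked copy, 6 were detected and 5 tested, and 0 of 5 were called. All 5 had a higher mean in pregnant cows (median 0.75), with 2 of them floored in each cow without pregnancy. Among all 88 tested miRNAs, 62 (70.5%) had a higher mean in pregnant cows (median 0.18). miR-19b had the largest of these differences, 1.18, and miR-19a had 0.75. All 5 were also positive without scaling and with quantile scaling, but with normexp background correction only miR-19b stayed positive (0.083) and the others fell between -0.20 and -0.036. Of all 88 tested miRNAs, 76 were higher in pregnancy without scaling, 39 with quantile scaling and 8 with normexp.

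**Figure D3:**
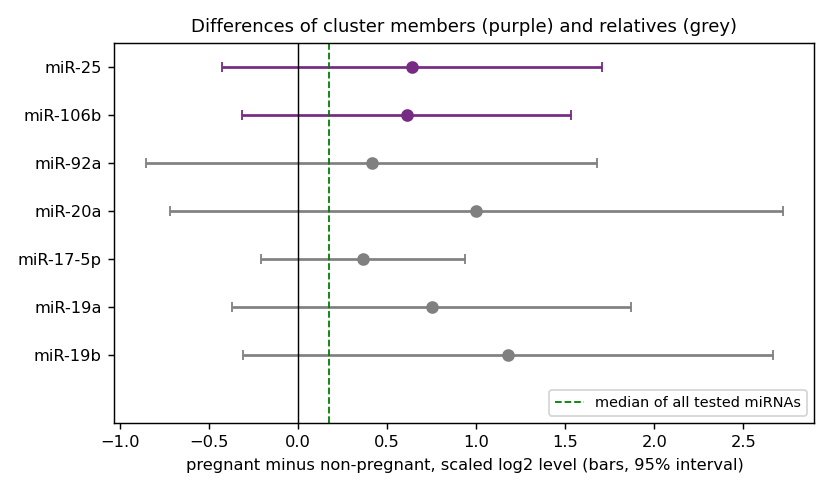
Pregnant minus non-pregnant difference of the scaled log2 level for the 2 tested cluster members (purple) and the 5 tested miRNAs of the paralogous clusters (grey), with 95% intervals from limma, and the median of all tested miRNAs as a dashed line. Every interval includes 0, and all 7 points lie above the dashed line at 0.18.

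The miRNAs whose scaled log2 levels followed miR-25 most closely over the 7 cows, among 76 detected on at least 5 arrays, were miR-30d (r = 0.975), miR-27b (0.975), miR-29a (0.971), miR-15a (0.970) and miR-19b (0.965). The median r over the 76 was 0.612. These arrays share their scaling, and miR-30d and miR-27b were at the floor on 2 and 3 arrays. For miR-106b the closest were miR-29c, miR-15b, miR-361, miR-19a and let-7g, with r from 0.982 to 1.00. Each of those was at the floor on 5 of 7 arrays, as miR-106b was, so that its r is set by 2 cows.

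Markers of blood cells are given beside these values, and their part in the differences was not tested. Plasma should hold few cells, but 7 of 9 erythrocyte miRNAs, 4 of 8 leukocyte miRNAs and 3 of 6 platelet miRNAs were detected on at least 1 array. Over the whole array, 620 of 744 miRNAs were detected on none. The summed unscaled signal of the erythrocyte list ran from 64.1 to 130 in pregnant and from 23.6 to 85.7 in non-pregnant cows, and that of the leukocyte list from 171 to 456 and from 64.3 to 184. That of the platelet list ran from 65.0 to 103 in pregnant and from 30.6 to 57.9 in non-pregnant cows. On log2 sums, unadjusted two-sided exact permutation p was 0.0857 for the erythrocyte, 0.0857 for the leukocyte and 0.0286 for the platelet list. The last is the smallest p possible, since every pregnant cow was above every non-pregnant cow. How many other sets of miRNAs were so separated on this measure was not counted. On the scaled log2 level, limma called none of the markers tested. The difference was positive for 5 of 5 erythrocyte miRNAs (median 0.38) and 3 of 3 leukocyte miRNAs (median 1.13). Of the 2 tested platelet miRNAs (median 0.25), miR-24-3p differed by 0.67 and miR-197 by -0.17. Among all 88 tested miRNAs, 62 (70.5%) were higher in pregnancy, with a median difference of 0.18. With normexp background correction 0 of 5 erythrocyte, 2 of 3 leukocyte and 1 of 2 platelet miRNAs were higher in pregnancy, against 8 of all 88 tested. The red-cell miRNA miR-144, the leukocyte miRNAs miR-142-3p, miR-155, miR-146a and miR-181a and the platelet miRNAs miR-126-5p, miR-191 and miR-21-5p were not detected on any array. Fewer cells of a type and less RNA per cell cannot be told apart in plasma.

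**Figure D4:**
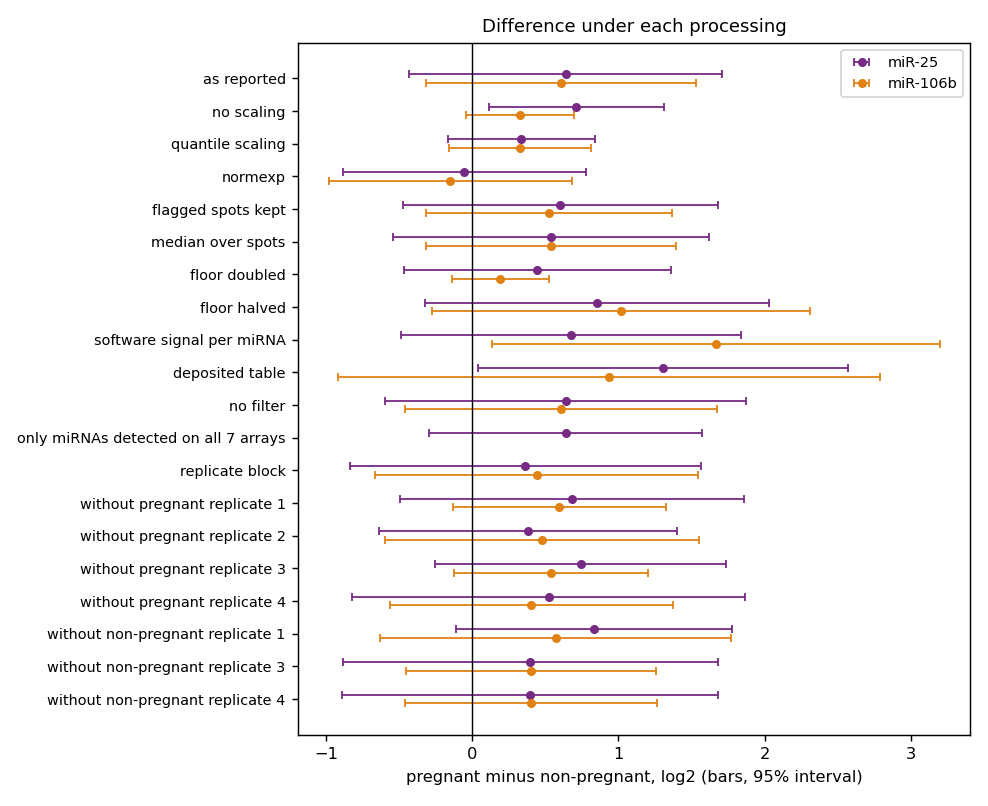
Pregnant minus non-pregnant difference of miR-25 (purple) and miR-106b (orange) on a log2 scale under each way of processing the arrays, with 95% intervals. Both lie above 0 in the settings drawn except with normexp background correction, where they are -0.052 and -0.15, and the size for miR-106b ranges up to 1.67.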

How the data were processed

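The deposited scanner files hold spot intensity from Agilent Feature Extraction 11.0.1.1, background-subtracted within each array and not scaled between arrays, per the file headers. A log2 table deposited beside them matched 730 of 744 names, equalled log2 of the software's signal per miRNA plus 3.32, and is blank where a miRNA was not detected. RNA came from plasma with a serum and plasma kit, per the labels' protocols.

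Control spots and spots marked as outliers (558 to 1149 per array) were left out. Spot means per probe were divided by the 75th percentile, within the array, of 57 probes that had over 50% of spots well above background on every array. Scaled values under 0.0122 were set to that floor, and log2 values were averaged over a miRNA's probes. miRNAs detected on at least 3 arrays (88) were tested with limma 3.58.1 in R 4.3.3, with a Benjamini-Hochberg threshold of 0.05. The limma fit was also run on simulated normal levels without a floor, which cannot vouch for it on miRNAs at the floor such as miR-106b. Single values were compared by two-sided exact permutation over 35 splits. Each sample was treated as a separate animal, and the number of arrays limits the precision. Settings tried changed the scaling, background correction, spots, summary, floor, filter, test, the cow number as a block, and each array left out.

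The members and lists were chosen with earlier results of these data known. Named miRNAs are the 3 members, their seed relatives and paralogous cluster members that were detected, and the 5 most alike by correlation. Further named ones are undetected list members.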

Additional observations from a re-analysis of the deposited data

Results flagged for a closer look

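Of 26 sets of values examined for a pregnant cow far from the other 3, a single one stood out: the longer miR-25 probe read 27.3 in pregnant cow 1 and 48.6 to 51.9 in the other pregnant cows, a gap of 0.866 of the whole range. Chance marks about 1 in 20 such groups. Non-pregnant cow 3 read 28.0, and the scaled level of miR-25 did not set pregnant cow 1 apart.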

How the results depend on the processing

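In every setting run, limma called 0 miRNAs after adjustment. At an unadjusted p under 0.05 there were 0 to 10, of which 10 without scaling and 9 both with the software's signal and without pregnant cow 3. The exact permutation tests called 0, with 0 at an unadjusted p under 0.05. Their smallest possible p is 0.0286, so a call after adjustment over 88 miRNAs would need many of them at that value. The 0 called by these tests therefore says little. The adjusted p of miR-25 ran from 0.336 to 0.994 and that of miR-106b from 0.345 to 0.967. Normexp turned miR-25 to -0.052 and miR-106b to -0.15, and the cause was not tested. Their differences were positive in 21 of 22 and 20 of 21 settings. These settings reuse the same arrays and some repeat the same value, as miR-25 did without the filter (0.64), so the counts are not separate evidence. Where all 3 non-pregnant cows lay at the floor, the difference of miR-106b could not be negative. With an array left out, miR-25 ran from 0.38 (without pregnant cow 2) to 0.84, miR-106b from 0.40 to 0.60, miR-93 from 0.00067 to 0.090, and miR-25 minus miR-106b from 0.23 to 0.51. The latter was -0.083 with the software's signal. The level difference of miR-93, which was not tested, was 0.075, and moved to -0.25 with normexp, 0.32 with the floor halved and 0.50 with the software's signal. The deposited table, not scaled between arrays, left out blank cows, so that 1 of 3 non-pregnant cows gave the 0.94 of miR-106b. There miR-25 kept all 7 cows and differed by 1.30 (95% interval from 0.037 to 2.57, limma, adjusted p = 0.630). With cow number as a replicate block over 6 arrays, the differences were 0.36 for miR-25 and 0.44 for miR-106b, and 0 miRNAs were called. The labels do not say whether a number shared between the groups has a meaning. The deviations from the group means of cows 1, 3 and 4 correlated between the groups at 0.094, 0.65 and -0.20. Scaling by the 75th percentile over all probes was not run, because that percentile was -0.291 in non-pregnant cow 1 and dividing by it turns the array over. The planned correlation of scaled levels was not run, because miR-106b was above the floor on 2 arrays only. For that case the plan was to give values with no correlation. The correlations given above used longer-probe signals without a floor and were not planned. Signals near background limit miR-93 and miR-106b.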
